A study of Mus musculus with 8 samples.

Results

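A set of 7 genes of the chemokine receptor family was followed in lymphatic and blood vascular endothelium of the mouse colon: the signalling receptors Cxcr4, Ccr7 and Cx3cr1 and the atypical receptors Ackr1, Ackr2, Ackr3 and Ackr4. They were taken by name, with every probe set annotated to 1 of these genes and to no other, which gave 7 of 18193 named genes and 12 of 45101 probe sets. Lymphatic endothelial cells (LEC) and blood vascular endothelial cells (BEC) were obtained by flow sorting after staining for CD31, podoplanin and CD45.2, from the colons of 4 healthy C57BL/6J mice aged 8 weeks (3 female, 1 male). Each mouse gave 1 LEC and 1 BEC sample, so there were 4 arrays per cell type, and replicate 4 is the male pair. No treatment or genetic change was made, and the pairs had been picked for the quality of their RNA and amplified cDNA.

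Chemokines are small secreted proteins that guide leukocytes. Signalling receptors pass their binding on through G proteins, whereas atypical receptors bind chemokines without classical G protein signalling and remove, carry or present them. ACKR2 takes up inflammatory CC chemokines and is known in lymphatic endothelium, ACKR1 carries chemokines across the endothelium of venules, ACKR3 takes up CXCL12, the ligand of CXCR4, and ACKR4 takes up CCL19 and CCL21, the ligands of CCR7.

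The promoters of Ackr2, Ackr3 and Cxcr4 are shown because Cxcr4 and Ackr2 had the largest differences in the 2 directions and Ackr3 is the other CXCL12 receptor. Each is the 300-base RefSeq window of GRCm38.p6 around the start of the gene, written 5′ to 3′ on the gene's strand. Capitals mark the TATA box motif TATAAA and the GC box motif GGGCGG on either strand.
Ackr2, chr9:121898105-121898404, plus strand: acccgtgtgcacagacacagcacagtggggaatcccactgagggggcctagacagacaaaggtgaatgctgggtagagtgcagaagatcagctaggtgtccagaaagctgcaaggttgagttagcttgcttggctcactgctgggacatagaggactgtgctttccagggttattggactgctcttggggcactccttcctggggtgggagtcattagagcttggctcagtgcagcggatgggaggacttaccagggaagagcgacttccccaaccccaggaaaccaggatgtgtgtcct
Ackr3, chr1:90203730-90204029, plus strand: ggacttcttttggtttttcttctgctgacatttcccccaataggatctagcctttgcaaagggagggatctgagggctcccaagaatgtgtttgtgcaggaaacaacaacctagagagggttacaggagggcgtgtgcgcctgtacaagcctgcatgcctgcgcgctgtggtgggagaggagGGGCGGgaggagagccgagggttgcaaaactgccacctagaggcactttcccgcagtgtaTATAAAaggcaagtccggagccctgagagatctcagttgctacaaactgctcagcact
Cxcr4, chr1:128592250-128592549, minus strand: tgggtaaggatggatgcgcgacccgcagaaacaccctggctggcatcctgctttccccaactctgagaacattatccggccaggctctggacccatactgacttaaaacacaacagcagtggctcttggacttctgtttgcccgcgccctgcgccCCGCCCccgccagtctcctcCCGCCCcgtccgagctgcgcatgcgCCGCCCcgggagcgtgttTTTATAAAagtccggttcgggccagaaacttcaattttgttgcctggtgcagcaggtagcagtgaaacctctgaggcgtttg
The Ackr3 window held 1 match to TATAAA and 1 to GGGCGG, and the Cxcr4 window held 2 matches to TATAAA, which overlap on opposite strands, and 3 to GGGCGG. The Ackr2 window held neither. Of 32851 RefSeq promoter windows of that length, 13.6% held TATAAA and 35.7% held GGGCGG. The ETS core GGAA, a motif of a factor family active in endothelium, matched 6 times in Ackr2, 3 times in Ackr3 and 1 time in Cxcr4, and 96.0% of all windows held it.

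The labels were first set against defining genes. On the log2 signal scale used throughout, podoplanin (Pdpn), itself stained for the sort, ran from 12.17 to 12.31 in LEC and from 2.78 to 4.12 in BEC. Prox1, the lymphatic fate factor, ran from 10.91 to 11.93 in LEC and from 3.22 to 4.57 in BEC, and Vwf, von Willebrand factor, from 0.85 to 5.24 in LEC and from 10.75 to 11.15 in BEC. Pecam1 (CD31) was bright in both, at 10.68 to 12.06 in LEC and 11.69 to 12.69 in BEC. An array's background level, set from bacterial control probe sets, lay between 3.43 and 4.88. Markers of other cells were present to some degree. The mean of 12 epithelial markers ran from 4.50 to 8.68 in LEC and from 5.19 to 10.15 in BEC, that of 8 fibroblast markers from 3.85 to 8.72 in LEC and from 3.33 to 4.07 in BEC, and that of 7 glial and neuroendocrine markers from 2.19 to 3.91 in LEC and from 4.32 to 6.65 in BEC. The part of these cells in the receptor differences was not tested. LEC replicate 1 had a median Spearman correlation of 0.603 with the other LEC arrays, against 0.745 to 0.746 for the other LEC arrays.

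Of the 7 genes, 5 were bright enough to be tested, and they divided: Ackr2 and Ackr3 were higher and Cxcr4 and Ackr1 lower in LEC, and Ackr4 was lower by 2 of its 3 probe sets. Ccr7 and Cx3cr1 did not pass the filter. A gene was tested where its brightest probe set exceeded the 40th percentile of the array in 4 or more of the 8 arrays, and called at an adjusted p under 0.05 in limma. Of all 13259 genes tested, 4.07% were called, 1.76% higher and 2.31% lower in LEC. The share called among the 5 cannot be read against this. Ackr2 passed the filter on 4 LEC arrays and 1 BEC array and Cxcr4 on 1 LEC array and 4 BEC arrays, so each was tested mainly through the group in which it was bright. The median difference of all genes tested was 0.08. The LEC and BEC arrays did not overlap in 10.4% of all genes tested, nor in any of the 5 receptors by its brightest probe set. For the same reason, the 5 cannot be read against this share either. The balance of calls moved with the scaling: 234 genes were higher and 306 lower in LEC as deposited, 162 and 336 with equal array medians, and 123 and 280 with equal hybridisation controls. In sorted populations, a lower signal from fewer cells with the transcript cannot be told apart from less RNA per cell.

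**Figure D1:**
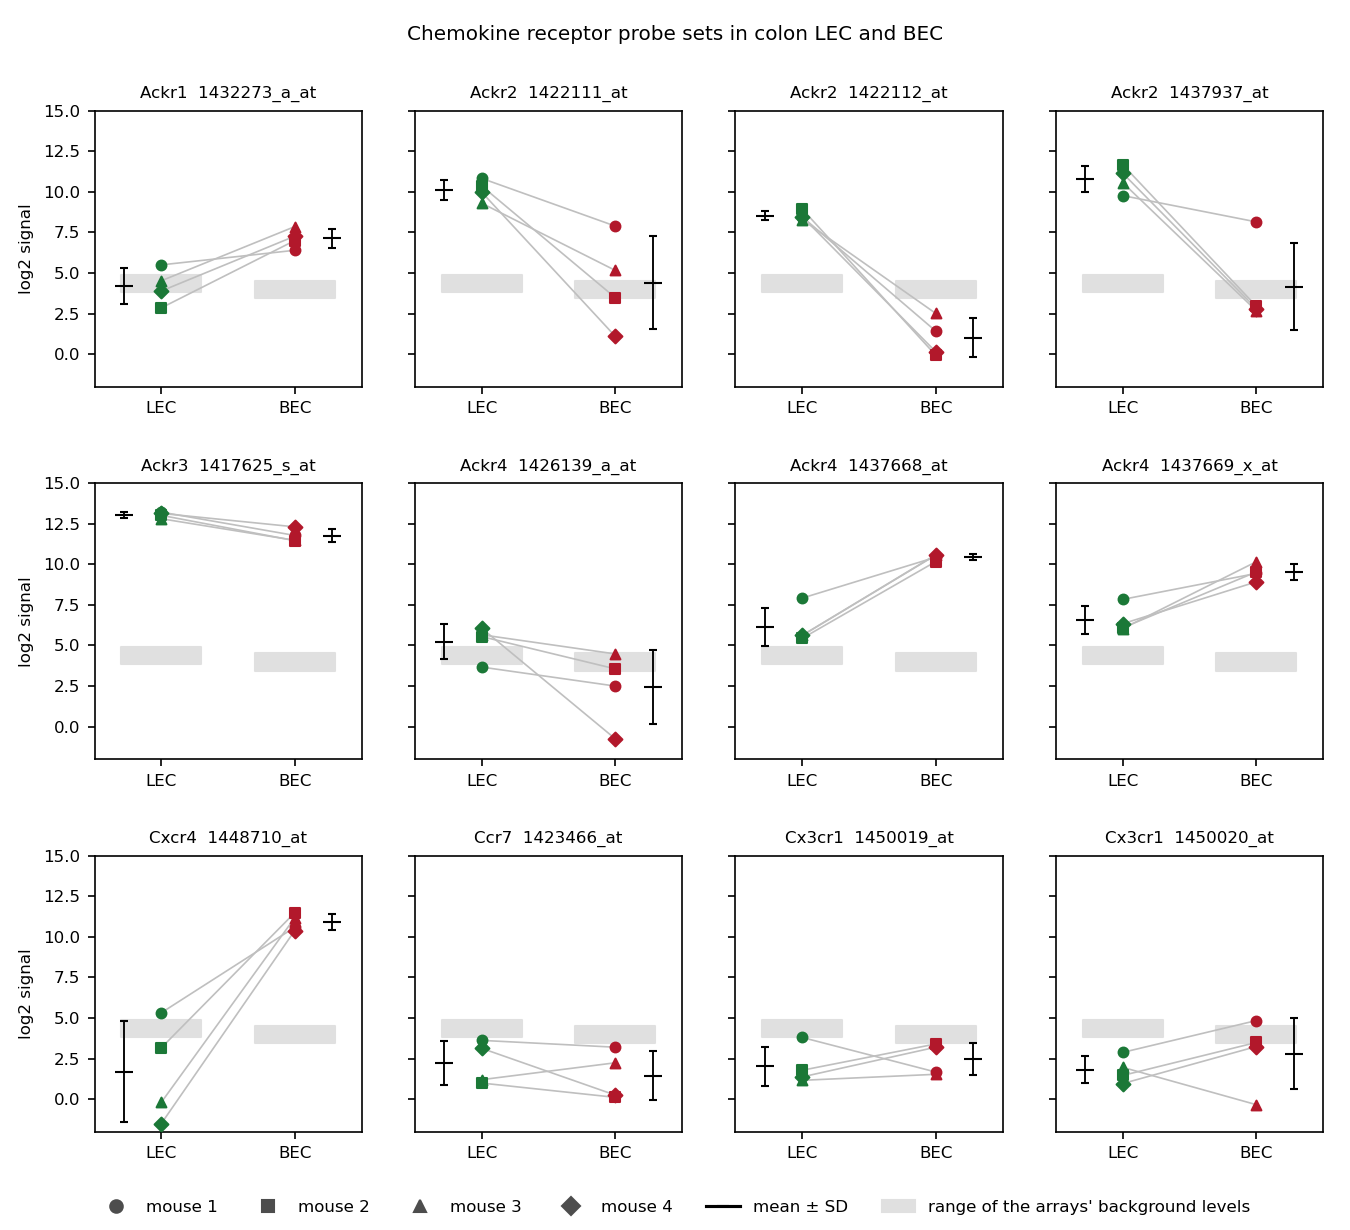
Log2 signal of the 12 probe sets in LEC (green, left) and BEC (red, right); symbols are mice, grey lines join the 2 samples of a mouse, black bars are mean ± SD (n = 4) and grey boxes the range of the arrays' background levels. Ackr2 stood at 8.29 or more on all LEC arrays in each of its 3 probe sets, Cxcr4 at 10.39 or more on all BEC arrays, and Ccr7 stayed within or below the boxes.

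Both receptors of CXCL12 differed, in opposite directions. Cxcr4, through which CXCL12 signals, had log2 signals of 5.32, 3.16, -0.20 and -1.51 in LEC replicates 1 to 4, against 10.59, 11.49, 11.18 and 10.39 in BEC. The groups lay 5.06 apart at their nearest arrays, and only LEC replicate 1 was above background among the LEC arrays. Cxcr4 was at least 93.0-fold lower in LEC (LEC 1.69 ± 3.12, BEC 10.91 ± 0.51, SD, n = 4 each; limma difference -9.22 ± 1.21 SE, adjusted p = 0.000504). "At least" is used where some values of the dimmer group were under background; these were raised to the background level before the means were taken. The drop was seen within each mouse and ran from -5.26 in mouse 1 to -11.89 in mouse 4.

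Ackr3, the atypical CXCL12 receptor, was bright on all arrays. It had 13.22, 13.02, 12.81 and 13.14 in LEC and 11.78, 11.46, 11.48 and 12.31 in BEC. All LEC values were above all BEC values, with a gap of 0.49, and the highest BEC value was that of the male mouse. The difference was 2.44-fold (LEC 13.05 ± 0.18, BEC 11.76 ± 0.40; limma difference 1.29 ± 0.24 SE, adjusted p = 0.00586), with LEC higher in 4 of 4 mice by 0.83 to 1.56. This call depended on scaling: the adjusted p was 0.0981 with equal array medians (difference 1.01) and 0.279 with equal hybridisation controls (0.90), and it was 0.253 without an intensity trend in the variance.

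Ackr2, the scavenger of inflammatory CC chemokines, was higher in LEC in each of its 3 probe sets. In the brightest, 1437937_at, the LEC arrays had 9.77, 11.67, 10.57 and 11.15 and the BEC arrays 8.15, 2.96, 2.68 and 2.81. The groups did not overlap, but BEC replicate 1 stood far above the other BEC arrays, which were all below background. The difference was at least 72.4-fold (LEC 10.79 ± 0.82, BEC 4.15 ± 2.67; limma difference 6.64 ± 1.06 SE, adjusted p = 0.00222). It was at least 164-fold when BEC replicate 1 was left out. Within mice it was 1.62 in mouse 1 and between 7.89 and 8.71 in the others. With female mice only, this probe set missed the threshold in limma over probe sets (adjusted p = 0.055).

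The other 2 Ackr2 probe sets gave the same direction in every mouse. Probe set 1422111_at had 10.83, 10.36, 9.30 and 9.98 in LEC and 7.89, 3.48, 5.16 and 1.10 in BEC (at least 34.9-fold, or 68.2-fold when BEC replicate 1 was left out; limma over probe sets, adjusted p = 0.00933). Probe set 1422112_at had 8.46, 8.94, 8.29 and 8.47 in LEC and 1.42, -0.07, 2.51 and 0.15 in BEC (at least 28.6-fold; adjusted p = 0.000129). Here BEC replicate 1 did not stand apart, and all 4 BEC arrays were below background. The mean of 7 lymphatic markers was 12.51 to 13.17 in LEC and 4.70 to 5.64 in BEC, and BEC replicate 1 had the lowest value, 4.70. The part of lymphatic cells in the Ackr2 values of BEC replicate 1 was not tested.

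Fibroblast markers were also brighter on part of the LEC arrays. Their mean was 3.85, 8.72, 5.13 and 7.73 in LEC and 3.33, 3.39, 4.07 and 3.56 in BEC. Over the LEC arrays, Ackr2 by 1437937_at had the same order as this mean, whereas 1422111_at and Ackr3 were highest in LEC replicate 1, where the mean was lowest. Ackr2 by 1422112_at (8.46, 8.94, 8.29 and 8.47) was highest in LEC replicate 2, as the mean was. The part of fibroblasts in the Ackr2 and Ackr3 differences was not tested.

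Ackr1, which moves chemokines across venular endothelium, had 5.50, 2.85, 4.52 and 3.89 in LEC and 6.40, 7.0, 7.86 and 7.27 in BEC. The groups were 0.90 apart, with 2 of 4 LEC arrays above background. Ackr1 was at least 5.85-fold lower in LEC (LEC 4.19 ± 1.11, BEC 7.13 ± 0.60; limma difference -2.94 ± 0.75 SE, adjusted p = 0.0439), with differences of -0.90 to -4.16 in the 4 mice. The call was narrow: the adjusted p was 0.0694 with the mouse as a block, 0.0613 without the filter, 0.0546 in the fit over probe sets and 0.0631 to 0.14 when LEC replicate 2, 3 or 4 or any BEC array was left out. With the female mice only it was 0.226.

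Ackr1 overlaps Cadm3, an adhesion molecule gene on the same strand, in the RefSeq annotation of GRCm38.p6. The 3 Cadm3 probe sets had smaller values in LEC than in BEC in every mouse, and 1 of them was called. Their differences were -2.78 (1418921_at, adjusted p = 0.0721 over probe sets), -6.92 (1418922_at, adjusted p = 0.000433, at least 14.9-fold) and -4.35 (1449272_at, adjusted p = 0.0878, 3.03-fold or more). Whether the Ackr1 probe set also reads Cadm3 transcripts was not tested. ACKR1 is known in red cells too, and of 6 erythroid and platelet markers between 1 and 4 were above background on the LEC arrays and between 1 and 4 on the BEC arrays. Their part in the Ackr1 difference was not tested.

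The probe sets of Ackr4, the scavenger of the CCR7 ligands, had differences in opposite directions, of which only those lower in LEC were called. Probe set 1437668_at, taken for the gene as the brightest, had 7.92, 5.44, 5.62 and 5.62 in LEC and 10.44, 10.17, 10.59 and 10.57 in BEC. All arrays were above background, and the groups were 2.24 apart, with LEC replicate 1 nearest to BEC. This probe set was 19.5-fold lower in LEC (LEC 6.15 ± 1.19, BEC 10.44 ± 0.19; limma difference -4.29 ± 0.60 SE, adjusted p = 0.000792), and 29.4-fold lower without LEC replicate 1.

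Probe set 1437669_x_at, which is annotated to the same source sequence, had 7.84, 6.09, 6.04 and 6.34 in LEC and 9.44, 9.53, 10.16 and 8.92 in BEC. It was 7.66-fold lower in LEC (limma over probe sets, difference -2.94 ± 0.57 SE, adjusted p = 0.00948). Probe set 1426139_a_at, from another source sequence, had 3.67, 5.55, 5.66 and 6.06 in LEC and 2.50, 3.56, 4.48 and -0.75 in BEC. Its value was larger in LEC than in BEC in 4 of 4 mice, but its groups overlapped, 2 of 4 BEC arrays were above background, and it was not called (difference 2.79 ± 1.16 SE, adjusted p = 0.308).

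The difference between probe sets was tested directly, which does not test whether 1426139_a_at was itself higher in LEC. The LEC minus BEC difference of 1426139_a_at was 7.07 above that of 1437668_at and 5.72 above that of 1437669_x_at (exact permutation tests over 70 splits of the arrays, without regard to pairing, two-sided p = 0.0286 for each, the smallest such a test can give). With values raised to background these differences were 5.83 and 4.48. They had this direction in 4 of 4 mice, where an exact test by sign flips within mice gave p = 0.125, the smallest that 4 pairs allow. With the mean of the 3 probe sets, Ackr4 differed by -1.48 and was not called (adjusted p = 0.181), so no direction for Ackr4 as a gene holds over its probe sets. Ackr4 overlaps Acad11, an acyl-CoA dehydrogenase gene on the opposite strand. The 2 Acad11 probe sets were dim, at 2.40 to 6.34 and -0.94 to 4.18 in LEC and at 1.01 to 5.22 and 0.12 to 5.72 in BEC, and the one that passed the filter was not called (difference 0.53 ± 1.16 SE, adjusted p = 0.898). Which transcripts the 3 Ackr4 probe sets read was not tested.

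**Figure D2:**
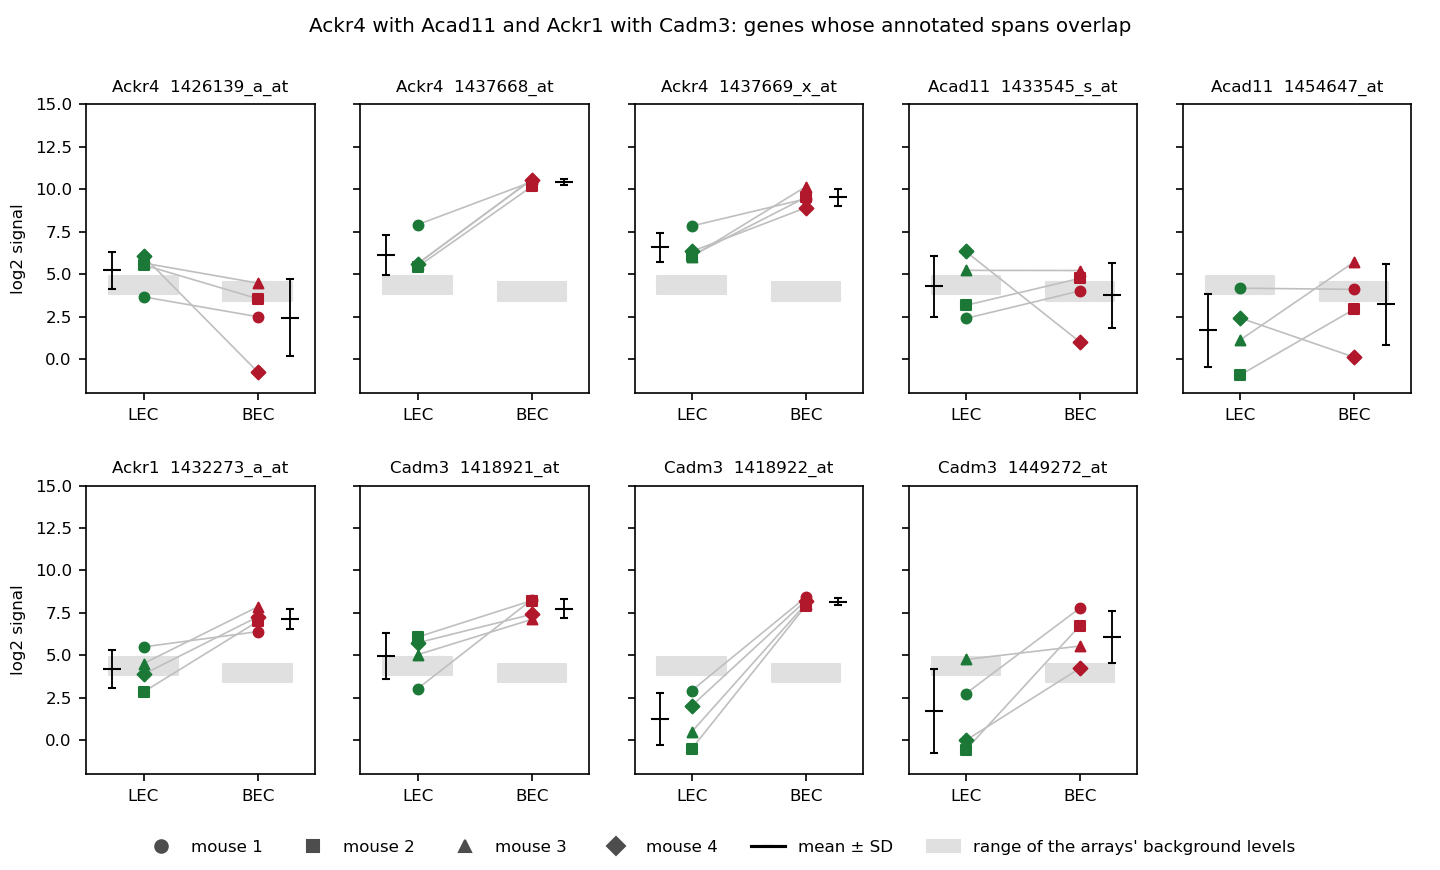
Log2 signal in LEC (green, left) and BEC (red, right) of the Ackr4 and Acad11 probe sets (top) and the Ackr1 and Cadm3 probe sets (bottom), with mice as symbols, mean ± SD (n = 4) as black bars and background ranges as grey boxes. Ackr4 probe set 1426139_a_at had larger values in LEC in all 4 mice while 1437668_at and 1437669_x_at had smaller ones, and the 3 Cadm3 probe sets, like Ackr1, had smaller values in LEC in all 4.

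Ccr7, the receptor that leads dendritic cells and T cells into lymphatics and nodes, was below background on all 8 arrays. It had 3.62, 0.99, 1.20 and 3.13 in LEC and 3.20, 0.11, 2.24 and 0.25 in BEC. The groups overlapped (difference 0.79 ± 1.13 SE and adjusted p = 0.875 in limma over probe sets without a filter; exact permutation test, two-sided p = 0.486, or 0.5 by sign flips within mice). Cx3cr1, the fractalkine receptor of monocytes and macrophages, had 3.80, 1.78, 1.16 and 1.37 in LEC and 1.67, 3.40, 1.53 and 3.20 in BEC by probe set 1450019_at. By 1450020_at it had 2.88, 1.46, 1.96 and 0.96 in LEC and 4.84, 3.49, -0.34 and 3.24 in BEC. No LEC array was above background in either, and 2 BEC arrays were in the second. The differences were -0.43 ± 1.06 and -1.0 ± 1.19 SE (adjusted p = 0.936 and 0.839; exact permutation tests, two-sided p = 0.714 and 0.429, or 0.75 and 0.625 by sign flips within mice). Differences among values below background are not measured reliably, so these values show neither a difference nor its absence.

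Leukocytes carry Cxcr4, Ccr7 and Cx3cr1, and CD45 was among the antigens stained. Its gene Ptprc had 3.87, 2.82, 2.29 and 6.41 in LEC and 5.18, 0.54, 7.58 and -1.27 in BEC. Of 27 leukocyte markers, 11 to 15 were above background on the LEC arrays and 9 to 13 on the BEC arrays, and their mean was 3.37 to 4.71 in LEC and 3.18 to 4.15 in BEC. The median difference of the 16 tested was 0.54, and 2 were higher and 2 lower in LEC at an unadjusted p under 0.05 in limma. After adjustment 1 was called: the gene of the leukocyte actin-bundling protein Lcp1, lower in LEC by at least 7.5-fold (adjusted p = 0.0384). That call was lost in 10 of 18 alternatives, among them the mouse block (adjusted p = 0.085), and its other probe set missed the threshold (adjusted p = 0.0734). Lcp1 had 4.56, 3.14, 7.05 and 4.50 in LEC and 8.25, 8.69, 7.22 and 8.22 in BEC. The part of leukocytes in the Cxcr4 difference was not tested.

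Over all 12 probe sets of the 7 genes, 9 passed the filter and 7 were called, 4 higher and 3 lower in LEC, where 3.31% of 28838 probe sets tested were called, 1.47% higher and 1.84% lower. These counts cannot be read against that share either, since Cxcr4 and Ackr2 by 1422112_at and 1437937_at passed the filter mainly through the group in which they were bright. The LEC and BEC arrays did not overlap in 8 of the 12, and in 7.3% of all 45037 probe sets without the controls. The 8 cannot be read against this share. Several probe sets belong to the same gene, and the genes were chosen with earlier results of these data known. The 4 probe sets with overlap were 1426139_a_at of Ackr4 and those of Ccr7 and Cx3cr1.

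**Figure D3:**
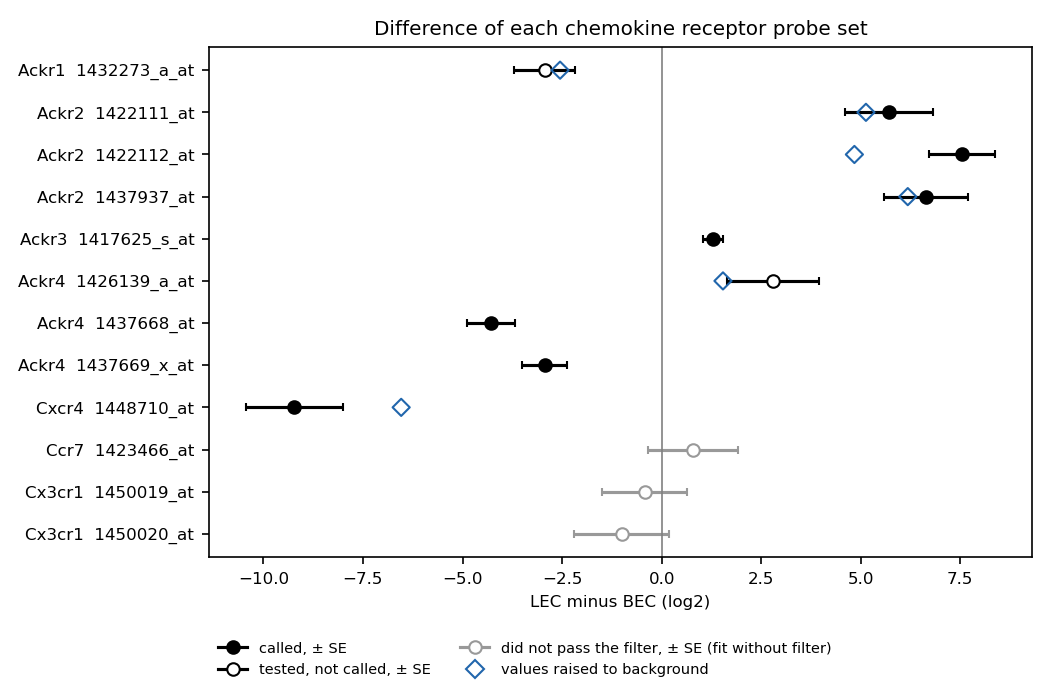
LEC minus BEC difference (log2) of each probe set with its limma SE (n = 4 arrays each); filled circles were called, open black circles were tested and not called, grey circles did not pass the filter, and blue diamonds are the differences after raising values to background. Cxcr4 lay farthest to the left at -9.22, or -6.54 with raised values, and the Ackr2 probe sets lay between 5.71 and 7.54, or 4.84 and 6.18 with raised values.

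Among the other chemokine receptors, Gpr182, a scavenging receptor of several chemokines, was higher in LEC. It had 9.91, 10.38, 8.97 and 9.58 in LEC and 4.47, 7.75, 7.21 and 6.67 in BEC, and was at least 9.0-fold higher in LEC with no overlap (difference 3.18 ± 0.69 SE, adjusted p = 0.0178). The call was lost with equal array medians (adjusted p = 0.0562), equal hybridisation controls (0.146), no intensity trend (0.0578), female mice only (0.11) and without LEC replicate 2 (0.0678). Of 20 listed receptors, 18 had a probe set and 6 were tested, with 1 called higher, 0 lower and a median difference of 0.55. Ccrl2, which presents chemerin, had 2.93, 7.69, 0.73 and -0.16 in LEC and 8.16, 8.10, 6.74 and 7.20 in BEC, and missed the threshold (difference -4.75 ± 1.37 SE, adjusted p = 0.0775). It passed with the mouse block (adjusted p = 0.0495) and without LEC replicate 2 (0.00258), and is named here after its values were seen. The 12 receptors that were not tested included Ccr1, Ccr2, Ccr3, Ccr4 and Ccr6.

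Among the ligands of the 7 receptors, Cxcl12 was lower in LEC. It had 9.30, 9.96, 8.64 and 7.80 in LEC and 13.56, 12.93, 12.19 and 13.02 in BEC, without overlap and above background on all arrays. The difference was 16.0-fold (-4.0 ± 0.45 SE, adjusted p = 0.000144), and the other Cxcl12 probe sets were dimmer in LEC, 1 by at least 60.9-fold (adjusted p = 7.83e-05) and 1, which was not called, by 9.17-fold or more (adjusted p = 0.0634). Cxcl12 and Cxcr4 were both lower and Ackr3 was higher in LEC.

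The other 7 ligands described for the tested receptors were not called. Adm, adrenomedullin, which ACKR3 also binds, was bright in both cell types at 12.59 to 13.39 in LEC and 11.92 to 12.53 in BEC (difference 0.64 ± 0.24 SE, adjusted p = 0.2). Cxcl11 (difference 1.16, ACKR3), Mif (-0.65, CXCR4), Ccl25 (0.90, ACKR4), Ccl3 (1.81, ACKR2), Ccl11 (0.51, ACKR1 and ACKR2) and Cxcl1 (-1.64, ACKR1) had adjusted p between 0.524 and 0.887. Cx3cl1, the ligand of CX3CR1, was above background on 1 LEC array and 4 BEC arrays (difference -2.78 ± 1.06 SE, adjusted p = 0.217), and is named after its values were seen. Of 25 listed ligands, 23 had a probe set and 11 were tested, with 0 called higher, 1 lower and a median difference of 0.51. Ccl19 and Ccl21a were not analysed here.

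Of 37 listed G protein, arrestin, receptor kinase, RGS and effector genes, 36 had a probe set and 31 were tested, with 0 called higher and 1 lower in limma, and their median difference was 0.08, as for all genes. At an unadjusted p under 0.05, 1 was higher and 3 were lower. The called gene was Rgs5, a brake on G protein signalling and a known pericyte gene, with 4.81, 5.55, 4.71 and -0.97 in LEC and 9.04, 10.00, 10.04 and 9.30 in BEC (lower by at least 27.9-fold; adjusted p = 0.00849). In limma over probe sets, Rgs5 was also called by 1420941_at and 1420942_s_at (adjusted p = 0.00167 and 0.00402), both lower in LEC. Probe set 1420940_x_at, lower by 4.9-fold or more, was not called (0.169). Between 2 and 5 of 8 mural cell markers were above background in LEC and between 3 and 6 in BEC, with 0 of 5 tested called in limma (1 at an unadjusted p under 0.05), and their part in the Rgs5 difference was not tested.

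**Figure D4:**
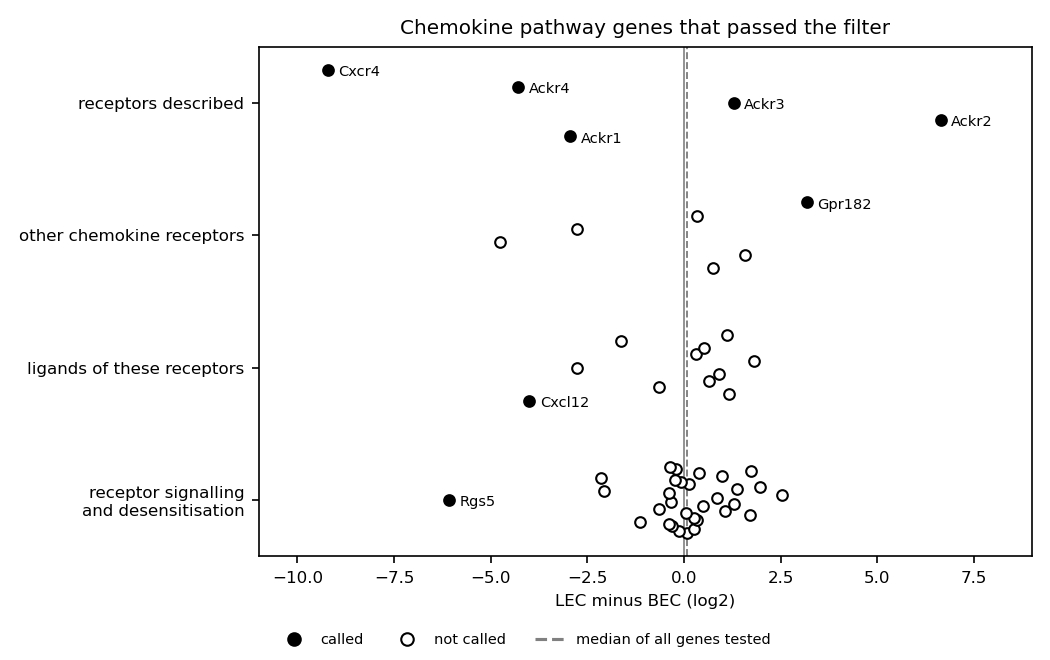
LEC minus BEC difference (log2) of every tested gene among the receptors described, the other chemokine receptors, the ligands and the signalling genes; filled circles were called in limma, and the dashed line is the median of all genes tested, 0.08. The 5 tested receptors of the upper row were called, Ackr4 by its brightest probe set. Gpr182, Cxcl12 and Rgs5 were the called genes of the other rows. Of all 13259 genes tested 4.07% were called. The 5 receptors cannot be read against this share, since Ackr2 and Cxcr4 passed the filter mainly through the group in which they were bright.

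The genes nearest to each called receptor were found by the root mean square difference of log2 values over the 8 arrays, each gene being centred on its own mean. Since they were picked on these same values, their directions and sizes of difference follow from the pick. For Cxcr4 these were Sema3g (1.29), Csf2rb (1.67) and Snai2 (1.71), each lower in LEC, by at least 111-fold, 14.7-fold and 64.6-fold. Of their LEC values, all for Sema3g and Csf2rb and 3 of 4 for Snai2 were below background. Sema3g is a semaphorin of arterial endothelium and Csf2rb a cytokine receptor subunit. For Ackr2 they were Ptger2 (0.99), Stc2 (1.13) and Hsd3b7 (1.18), and for Ackr3 Scd2 (0.19), Tspan3 (0.19) and Srrm2 (0.23). Ptger2 (adjusted p = 0.054 in limma) and the genes nearest to Ackr3 (0.108 to 0.25) were not called. For Ackr4 by 1437668_at they were Rsad2 (0.40), an interferon-induced gene, Selp (0.53), P-selectin of venules, and Tcf15 (0.58), each lower in LEC, and for Ackr1 Kank4 (0.49), Grasp (0.53) and Rab4a (0.57). Kank4 and Rab4a were not called (adjusted p = 0.234 and 0.169 in limma). Smaller differences between LEC and BEC leave less room for distance, so the root mean square differences are not comparable between receptors.

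Of 8 tested venous and venular markers, the transcription factor gene Nr2f2 was 7.80-fold higher in LEC, and 4 were lower: Vwf (at least 85.7-fold), the apelin receptor gene Aplnr (at least 83.3-fold), Selp (at least 8.84-fold) and Madcam1 (at least 4.97-fold). Selp and Madcam1 were below background on all LEC arrays, and Madcam1 lost its call with values raised to background (adjusted p = 0.0516). Selp lost its call with female mice only (adjusted p = 0.0583) and Nr2f2 with equal hybridisation controls (0.0524). Of 13 arterial and tip cell markers, 6 were lower in LEC: Sema3g (at least 111-fold), Sox17 (at least 55.8-fold), Esm1 (at least 39.6-fold), Gja5 (at least 11.5-fold), Apln (at least 8.94-fold) and Hey2 (at least 7.85-fold). The rest were not called. Of these, Bmx was larger in LEC in 4 of 4 mice (limma difference 1.63, adjusted p = 0.254). Differences were smaller for Gja4 (0.28), Efnb2 (-0.11), Angpt2 (-0.09), Unc5b (-0.14), Dll4 (-0.67) and Hey1 (-0.68). Apln was not called in 7 of 18 alternatives (adjusted p up to 0.114), 5 of them without LEC replicate 4 or any 1 BEC array. Hey2 was not called in 4 (up to 0.13), among them without BEC replicate 1, 2 or 4, and Gja5 in 2, without BEC replicate 1 or 2 (up to 0.0584). Ackr1 is known in venules and Cxcr4 in arterial and tip cells. The part of these vessel types in the Ackr1 and Cxcr4 differences was not tested.

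The lymphatic markers were higher in LEC in 7 of 7 tested and the blood endothelial markers lower in 6 of 7. Of 8 pan-endothelial markers 1 was lower in LEC, Cdh5 (2.27-fold), which was not called in 7 of 18 alternatives (adjusted p up to 0.319), among them without LEC replicate 3 or BEC replicate 1, 2 or 4. No epithelial, fibroblast or erythroid and platelet marker was called in limma among 12, 7 and 3 tested, with 1, 4 and 0 of them at an unadjusted p under 0.05. Of 4 glial and neuroendocrine markers tested, 1 was lower in LEC, Chgb (at least 82.8-fold, adjusted p = 0.00222).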

How the data were processed

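Total RNA of the 8 sorted samples was amplified isothermally with poly(A) and random priming and hybridised to single-colour arrays, per the labels' protocols. The deposited values are log2 signals, 1 column per array. The signals come from MAS5, per the submitters' processing notes; the sources used here give no version. Back on the linear scale, each array had a 2% trimmed mean of 100.04, so the authors' scaling sets arrays to equal average signal, and array medians ran from 3.85 to 4.75. Detection calls were not used here, and the number of arrays limits the precision.

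Symbols came from the platform annotation of 2016, updated through the gene number to RefSeq. Of 45101 probe sets, 34945 had 1 gene, 932 several, 9160 none, and 64 were controls. A gene was represented by its brightest probe set, and genes above the 40th percentile on at least 4 of 8 arrays entered a linear model (limma 3.58.1, R 4.3.3; eBayes with an intensity trend, cell type as the only term, 6 residual and 7.35 prior degrees of freedom). Two-sided p-values were adjusted by the Benjamini-Hochberg method over the 13259 genes. A second fit took all 28838 probe sets that passed. Differences are LEC minus BEC. The background level of an array is the 95th percentile of 27 Bacillus control probe sets. Probe sets outside the fit were compared by exact permutation tests over 70 splits, which ignore the pairing, and by 16 sign flips within mice; the sign flips, and values raised to background for the differences between Ackr4 probe sets, were chosen after seeing the data. The fits were tested on simulated data.

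The 2 samples with 1 replicate number came from 1 mouse, per the series' design text, so the replicate number is the mouse. Deviations from the group means of the 2 samples of a mouse correlated at 0.142, 0.0776, 0.181 and 0.0510 over the genes tested. The highest correlations with the other cell type of another mouse were 0.0295, 0.0295, 0.0747 and 0.0747, and that of mouse 4 was above its own. P-values measure the spread between mice together with that of amplification and array. The alternatives were a mouse block, no or a stricter filter, 3 other scalings, values raised to background, no intensity trend, female mice only, the mean of all probe sets, and leaving out each array. The genes and lists were chosen with earlier results of these data known. Named are all 7 receptors with every probe set, up to 6 called genes of each list, up to 8 tested ligands of called receptors, and the 3 nearest genes of each called receptor. The promoter table matched 6 of the 7 receptors.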

Additional observations from a re-analysis of the deposited data

Results flagged for a closer look

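Within each group of 4 arrays, a value was marked where its gap to the nearest array as a share of the group's range exceeded Dixon's critical value for 4 samples. Chance marks about 1 in 20 groups, and 24 groups were examined. Ackr2 probe set 1437937_at had 8.15 in BEC replicate 1, 5.19 above the next BEC array. Ackr4 probe set 1437668_at had 7.92 in LEC replicate 1, 2.30 above the next LEC array, and Ackr4 probe set 1437669_x_at had 7.84 in the same array, 1.49 above the next. The mean of the blood endothelial markers in LEC replicate 1 was 5.60, inside the range of the other LEC arrays (5.12 to 6.85) and below the BEC arrays (11.24 to 11.76). The median Spearman correlation of LEC replicate 1 with the other LEC arrays was 0.603. The causes of the marked values were not tested.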

How the results depend on the processing

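Each tested receptor kept its direction under all 18 alternatives. In the gene fit, Ackr2 and Cxcr4 were called in all of them (adjusted p up to 0.0498 and 0.00555), Ackr4 in all but the mean of its probe sets, Ackr3 in all but 3 and Ackr1 in 8. The brightest probe set was picked anew on the arrays of each fit. With female mice only, Ackr2 was not called in limma over probe sets by 1437937_at (adjusted p = 0.055) or 1422111_at (0.0617). Its probe set 1422112_at did not pass the filter there. With the mouse as a replicate block, Ackr1 lost its call (adjusted p = 0.0694) and no other receptor did, and 534 genes were called over all, against 540. Exact sign flips within mice gave p = 0.125 for the differences between Ackr4 probe sets, which cannot pass 0.05 with 4 pairs. With female mice only, 215 genes and 3 of the receptor probe sets were called, and with 3 arrays per group a gene bright in 1 group cannot pass the filter on 4 arrays by that group alone. Leaving out 1 array gave 332 to 512 genes, 4 to 5 receptors, 6 to 7 receptor probe sets and 20 to 31 listed genes (28 with all arrays). The lowest gene count came without BEC replicate 2; leaving out LEC replicate 2 or 4 gave 137 and 136 genes higher, and leaving out BEC replicate 1, 2, 3 or 4 gave 186, 164, 184 and 180 genes lower. These fits, too, need 4 bright arrays. Over all genes 234 were called higher and 306 lower in LEC. That split was 162 and 336 with equal array medians and 123 and 280 with equal hybridisation controls, which moved the median difference to -0.20 and -0.31. Differences of values below background, as in Cxcr4 on LEC arrays and Ackr2 on BEC arrays, are limited by signal over background. Of the genes named beside the receptors, 3 that were not called changed direction: Ccl11 (-0.41 with female mice, -0.11 to 1.08 with 1 array left out), Mif (0.80 with the mean of its probe sets, -1.39 to 0.03 with 1 array left out) and Acad11 (-1.07 with female mice, -0.50 with the mean of its probe sets, -0.38 to 1.16 with 1 array left out). The causes were not tested.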
